A study of Mus musculus with 4 samples.

Results

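The V and J segments of the T cell receptor alpha chain (TRA) were described in T cells taken from B16 tumours, grafts of a mouse melanoma line. The members were all assembled TRA transcripts (contigs) that the deposited tables mark as productive and of high confidence, 127 in the library labelled WT and 165 in the library labelled KO. These 292 contigs were part of 4903 contigs of all chains, among them 329 TRA contigs of any quality in the library labelled WT and 422 in that labelled KO. They came from 122 and 155 cell barcodes (one droplet each) and held 115 and 110 unique nucleotide sequences of the third complementarity-determining region (CDR3), each called a rearrangement below. The tumours were grown in the right flank of male C57BL/6 mice, either wild-type or carrying the genotype label ATPIF1 knock-out, and were taken on day 12. ATPIF1 is a mitochondrial protein that inhibits the F1Fo-ATPase, and the title of the series asks about CD8 T cells after its inactivation. The design text gives n=6, without saying whether per genotype, and states that the tumour suspensions of a genotype were mixed before CD45-positive leukocytes were sorted. Each genotype therefore has 1 RNA library and 1 TCR library, with no replicate, so that no difference below was tested and no p-value is given. Cells of the same mouse and cells of different mice cannot be told apart.

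The alpha chain is made in the thymus by joining 1 of many V segments to 1 of many J segments, with bases lost or added at the joint, and the CDR3 spans that joint. A locus can rearrange again and again, each round replacing the earlier joint with a V segment further upstream and a J segment further downstream, and both copies of the locus may do so, which leaves some T cells with a pair of alpha chains. The pairing of TRAV11 with TRAJ18 marks invariant NKT cells, which recognise glycolipids on CD1d, and that of TRAV1 with TRAJ33 marks MAIT cells, which recognise vitamin B metabolites on MR1. The remaining T cells recognise peptides with a CDR3 that is highly diverse, so cells of a tumour that share a CDR3 nucleotide sequence may descend from 1 cell, although the same sequence can also form more than once.

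The rearrangements that carry the results are shown here as CDR3 nucleotide sequences, 5′ to 3′, as deposited. The first pair joins TRAV11 to TRAJ18, and the capitals mark the 27 bases at the 3′ end that all 8 rearrangements with TRAJ18 share.
TRAV11 with TRAJ18, 1 barcode in each library: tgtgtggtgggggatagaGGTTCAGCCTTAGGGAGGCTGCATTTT
TRAV11 with TRAJ18, 1 barcode in the library labelled WT: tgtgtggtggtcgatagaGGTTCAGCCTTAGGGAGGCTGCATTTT

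The next 5 are every rearrangement found in at least 5 barcodes, all in the library labelled KO. The last is the one with most barcodes in the library labelled WT, chosen after its values were seen. In these 6 sequences the capitals mark the longest 3′ end shared with another rearrangement that uses the same J segment, which gives the reader the part contributed by the J segment as far as these data show it.
TRAV9-1 with TRAJ12, 12 barcodes: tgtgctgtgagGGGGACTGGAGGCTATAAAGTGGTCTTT
TRAV13-1 with TRAJ43, 12 barcodes: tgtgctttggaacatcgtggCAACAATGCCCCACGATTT
TRAV4-4-DV10 with TRAJ49, 11 barcodes: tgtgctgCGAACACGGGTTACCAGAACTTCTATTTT
TRAV6N-7 with TRAJ17, 7 barcodes: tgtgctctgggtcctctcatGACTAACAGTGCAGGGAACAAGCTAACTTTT
TRAV7D-2 with TRAJ7, 5 barcodes: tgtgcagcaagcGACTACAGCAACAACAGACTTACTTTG
TRAV4-4-DV10 with TRAJ12, 4 barcodes in the library labelled WT: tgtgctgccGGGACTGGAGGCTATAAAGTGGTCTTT

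Before the segments are described, 4 measurements bear on all of them. Atpif1, the targeted gene, was detected under either label: 576 CPM (UMIs scaled to the cells' total; exact 95% interval 567 to 585, 16065 UMIs in 4370 RNA cells) in the library labelled WT and 679 CPM (668 to 692, 12362 UMIs in 3211 RNA cells) in that labelled KO. Within the TRA barcodes that passed as RNA cells it stood at 286 CPM (245 to 331) and 447 CPM (408 to 488). It was not lower under the KO label in either set of cells, which goes against that label. Which part of the gene was removed is not given in the sources used here, so a tag from the 5′ end of the transcript may lie outside it and may not check the labels. The libraries are therefore named by their labels throughout. TRA was found sparsely, in 111 (15.3%) of 726 RNA cells with at least 2 Cd3 UMIs in the library labelled WT and in 147 (15.7%) of 938 in that labelled KO, whereas the beta chain (TRB) was found in 28.9% and 26.7% of them. A TRA contig rested on a median of 2 UMIs in each library, and 26.0% and 29.7% of the contigs on 1 UMI. No TRA barcode was shared by both libraries, while 29 barcodes passed as RNA cells in both.

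The TRA barcodes carried T cell transcripts. A Cd3 UMI was present in 119 of the 122 barcodes and in 154 of the 155, in the library labelled WT and that labelled KO in turn, and a UMI of Trac, the alpha constant region, in 76 and 126. Transcripts of other cells were present as well. At least 3 UMIs of the 5 macrophage markers Lyz2, Csf1r, C1qa, C1qb and Adgre1 were found in 9 and 30 barcodes, and all 5 markers were detected in each library, with a summed level of 586 CPM and 1638 CPM (at most 125 and 220 UMIs in a cell). Markers of B cells summed to 43.3 and 10.1 CPM, those of NK cells to 53.0 and 11.9, those of neutrophils to 88.3 and 11 and those of melanoma to 20.9 and 6.43. The gamma-delta T cell markers Trdc, Tcrg-C1 and Tcrg-C2 summed to 3.21 and 51.5 CPM. In the TRA barcodes that passed as RNA cells they had 2 UMIs under the WT label and 56 under the KO label. Of the latter, 52 were Tcrg-C2, and the part of these markers in the results was not tested. Without the barcodes with at least 3 macrophage or B cell marker UMIs, the 7 TRAV families and 4 TRAJ segments compared below kept the direction of their ratios.

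The difference that runs through the counts below was in how many cells shared a rearrangement. The library labelled WT held 115 unique rearrangements in 127 contigs, and 107 of them occurred in a single barcode, 5 in 2, 2 in 3 and 1 in 4. That labelled KO held 110 in 165 contigs, 99 of them in a single barcode, while the largest occurred in 12. Rearrangements in at least 2 barcodes made up 20 of 122 barcodes (16.4%, exact 95% interval 10.3 to 24.2) in the library labelled WT and 59 of 155 (38.1%, 30.4 to 46.2) in the library labelled KO. Those in at least 5 barcodes made up 40 of 155 (25.8%, 19.1 to 33.4) in the latter and 0 of 122 in the former, where a count of 0 allows a share of up to 2.46%. Drawing 127 of the 165 contigs would leave 87.1 unique rearrangements on average, against the 115 seen among 127 in the library labelled WT, so the libraries also differed at the same number of contigs. All intervals here and below cover counting error only, and PCR reads are not independent molecules.

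**Figure D1:**
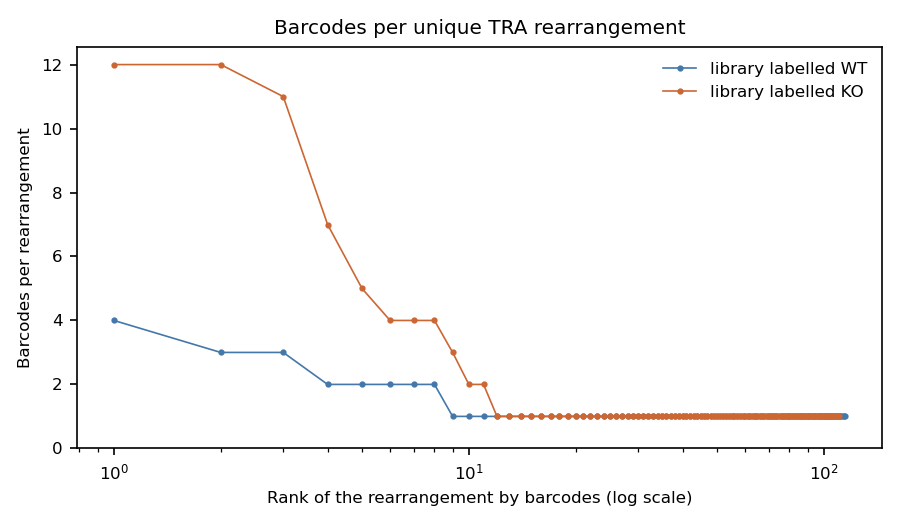
Barcodes per unique TRA rearrangement (vertical axis) against the rank of the rearrangement (horizontal axis, log scale), 1 line per library. The first 5 ranks of the library labelled KO lie between 12 and 5 barcodes, and the first rank of the library labelled WT at 4.

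The 5 rearrangements in at least 5 barcodes were found almost entirely in barcodes with CD8 transcripts. A UMI of Cd8a or Cd8b1, the chains of the CD8 co-receptor, was present in 12 of the 12 barcodes of TRAV9-1 with TRAJ12, 11 of the 12 of TRAV13-1 with TRAJ43, 10 of the 11 of TRAV4-4-DV10 with TRAJ49, 7 of the 7 of TRAV6N-7 with TRAJ17 and 5 of the 5 of TRAV7D-2 with TRAJ7. A UMI of Foxp3, the factor of regulatory T cells, was in none of them, and one of Cd4 only in 2 barcodes of TRAV7D-2 with TRAJ7. A UMI of Pdcd1, which encodes the inhibitory receptor PD-1, was seen in 3 of 12, 7 of 12, 4 of 11, 3 of 7 and 5 of 5 barcodes in the same order, and one of the proliferation gene Mki67 in 5, 3, 1, 4 and 1. The 5 rearrangements lay in 40 barcodes in all, and the 7 barcodes that held 2 of them count under each. Over all TRA barcodes of the library labelled KO, these 40 included, the shares were 57.4% for Cd8, 21.9% for Cd4 and 16.1% for Foxp3. They were 37.4% for Pdcd1 and 23.2% for Mki67. Depth differed as well, with medians of 5745.5, 3073.5, 3394, 6772 and 14735 RNA UMIs in the same order. The 3 rearrangements with 4 barcodes in the library labelled KO (TRAV14D-2 with TRAJ7, TRAV14-2 with TRAJ49 and TRAV12D-3 with TRAJ21, chosen after their values were seen) were also in barcodes with a Cd8 UMI, 4 of 4 each. TRAV4-4-DV10 with TRAJ12, the leading one of the library labelled WT, had a Cd8 UMI in 0 of 4 barcodes and a Cd4 UMI in 2. This contrast does not hold for every shared rearrangement. TRAV3D-3 with TRAJ28 in the library labelled WT had a Cd8 UMI in 2 of 2 barcodes. TRAV12-3 with TRAJ49 in that labelled KO had one in 0 of 2, and a Foxp3 UMI in 2 of 2.

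The 5 large alpha rearrangements were found with few beta partners. All 12 barcodes of TRAV9-1 with TRAJ12 held 1 and the same TRB rearrangement, TRBV10 with TRBJ2-1, and all 7 of TRAV6N-7 with TRAJ17 held it too, with a second TRB sequence among them. TRAV13-1 with TRAJ43 was found with TRBV29 and TRBJ2-7 in 9 of its 12 barcodes, and TRAV4-4-DV10 with TRAJ49 with the same TRB sequence in 8 of its 11. TRAV7D-2 with TRAJ7 had TRBV16 with TRBJ2-7 in 5 of 5. The most frequent partners of the 5 alpha rearrangements were thus 3 beta sequences.

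Both alphas of a shared beta partner were also found together in some barcodes. Barcodes with a pair of productive alpha chains numbered 5 of 122 (4.10%, 1.34 to 9.31) in the library labelled WT and 10 of 155 (6.45%, 3.14 to 11.5) in that labelled KO, and no barcode held more than 2. Every pair in the library labelled WT was in a single barcode, whereas 2 of the 5 distinct pairs in the library labelled KO recurred and took up 7 of its 10 barcodes. TRAV4-4-DV10 with TRAJ49 and TRAV13-1 with TRAJ43 were found together in 4 barcodes, and TRAV6N-7 with TRAJ17 and TRAV9-1 with TRAJ12 in 3.

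Most barcodes with either of these beta sequences held only 1 of the alphas, or none. Of the 21 barcodes with the TRBV29 sequence, 2 held both alphas of the first pair, 6 only TRAV4-4-DV10, 7 only TRAV13-1 and 6 no TRA by the rule. Of the 28 barcodes with the TRBV10 sequence, 3 held both alphas of the second pair, 4 only TRAV6N-7, 9 only TRAV9-1, 1 another TRA and 11 none. No barcode with either alpha of the first pair held another TRB, although 4 of its 19 had none. Cells with both alphas and a chain missed, separate cells that share a beta sequence and droplets with more than 1 cell cannot be told apart here, and no doublet caller was run.

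Segment use was counted by barcode, which weighs a rearrangement by its cells, and by unique rearrangement, which counts each nucleotide sequence once. The members used 65 TRAV genes, 51 in the library labelled WT and 52 in that labelled KO with 38 in both, and 41 TRAJ segments, 37 and 32 with 28 in both. All 106 names matched a symbol of the RefSeq table for GRCm38 (the mm10 build), which lists 114 functional V and 51 functional J segments in this locus on chromosome 14, and none of its 16 V and 9 J pseudogenes was used. In C57BL/6 mice a large part of the V cluster exists in 3 near-identical copies, named without a letter, with D or with N. Copies cannot always be told apart from a short sequence, so V genes were merged to 17 families by the number after TRAV, of which 15 and 16 were used.

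TRAV6, TRAV7, TRAV14, TRAV13 and TRAV9 held the most unique rearrangements over both libraries. TRAV6 led in the library labelled WT with 24 of 122 barcodes (19.7%) and 22 of 115 rearrangements (19.1%), against 18 of 155 barcodes (11.6%) and 12 of 110 rearrangements (10.9%) in the library labelled KO. TRAV7 had 17 and 18 barcodes from 17 and 14 rearrangements. TRAV14 had 17 and 21 barcodes from 14 and 15 rearrangements. These last 2 families differed by less than 1.5-fold in either count.

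TRAV13 and TRAV9 differed between the counts. TRAV13 had 11 barcodes (9.02%) in the library labelled WT and 23 (14.8%) in that labelled KO, but 10 and 12 rearrangements, and 12 of the 23 barcodes held the TRAV13-1 rearrangement shown above. TRAV9 had 10 (8.20%) and 20 barcodes (12.9%), but 10 and 9 rearrangements, and 12 of the 20 barcodes held the TRAV9-1 rearrangement. TRAV4 had 10 and 17 barcodes from 7 rearrangements each, 11 of the 17 from TRAV4-4-DV10 with TRAJ49. Without the 5 rearrangements in at least 5 barcodes, the log2 ratio of the barcode shares (library labelled KO over that labelled WT) went from 0.72 to 0.085 for TRAV13, from 0.65 to -0.24 for TRAV9 and from 0.42 to -0.65 for TRAV4.

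**Figure D2:**
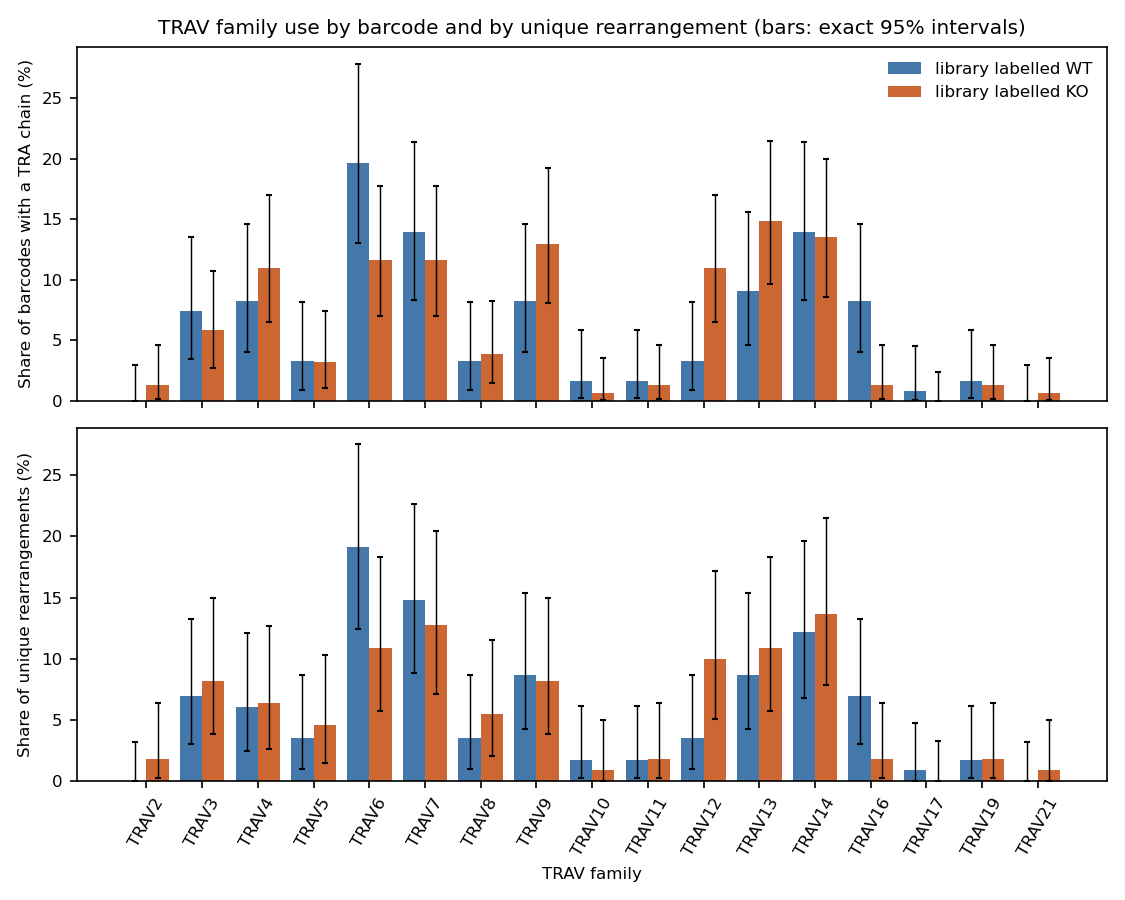
Share of TRA barcodes (upper panel) and of unique rearrangements (lower panel) that use each TRAV family, in percent, with exact 95% intervals for counting error as bars, for the libraries labelled WT and KO. TRAV6 stands at 19.7% and 11.6% of barcodes, and the bars of TRAV9 are 8.20% and 12.9% in the upper panel and 8.70% and 8.18% in the lower.

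With at least 20 barcodes over both libraries, 7 families could be compared, and 4 of them (57.1%) were at least 1.5-fold apart, 3 higher (42.9%) and 1 lower (14.3%) in the library labelled KO. By the same rule 60% of 10 TRBV families were that far apart, 30% higher and 30% lower. They come from the same libraries and are not an independent background. The higher ones were TRBV10, TRBV16 and TRBV29, the families of the most frequent beta partners of the 5 large alpha rearrangements. The 3 higher TRAV families were TRAV12 (log2 ratio of the shares, library labelled KO over that labelled WT, 1.74, 95% interval 0.13 to 3.77), TRAV13 (0.72, -0.38 to 1.90) and TRAV9 (0.65, -0.51 to 1.91), and the lower one was TRAV6 (-0.76, -1.73 to 0.18). Counted by unique rearrangement, 4 families could be compared and 1 of them (25%), TRAV6, was at least 1.5-fold apart, beside 25% of 8 TRBV families, with a log2 ratio of -0.81 (-1.96 to 0.27). TRAV6 was the single family past that size with at least 20 counts in both, its intervals included no difference, and with contigs of at least 2 UMIs its log2 ratio was -0.23.

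TRAV12 and TRAV16, chosen after their values were seen, differed widely in barcodes. No rearrangement in at least 5 barcodes used them, but smaller shared ones did. In the library labelled KO these were TRAV12D-3 with TRAJ21 (4 barcodes), TRAV12-2 with TRAJ32 (3) and TRAV12-3 with TRAJ49 (2). In that labelled WT, TRAV16N with TRAJ23 had 3. TRAV12 was found in 4 barcodes from 4 rearrangements in the library labelled WT and in 17 barcodes from 11 rearrangements in that labelled KO, and its interval in the unique count (log2 1.52, -0.23 to 3.63) included no difference. TRAV16 went the other way, with 10 barcodes from 8 rearrangements against 2 from 2, a total under the 20 counts set for a comparison. By copy, 30.4% of the unique rearrangements in the library labelled WT were named with D, 26.1% with N and 43.5% without a letter. The shares were 43.6%, 15.5% and 40.9% in that labelled KO, and they rest on copy names that the RNA data bore out only in part.

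The RNA library is a second reading of the same droplets. Where the barcode held a Trav UMI, it gave the V family of the contig in about 9 of 10 cases, though not evenly over the copies. Among contigs whose barcode held any Trav UMI, 81 of 91 (89.0%, 80.7 to 94.6) in the library labelled WT and 94 of 121 (77.7%, 69.2 to 84.8) in that labelled KO had a UMI of the same segment. For the same family the numbers were 84 (92.3%) and 108 (89.3%). The gap in the library labelled KO lay largely in 1 name. Of 11 contigs named TRAV6N-7 there, 0 had a UMI of that segment and 10 had one of TRAV6-7-DV9, so the copy name of the rearrangement with TRAJ17 is uncertain (the segments start at chr14:53318818 and chr14:53709943 in GRCm38). In the library labelled WT, the contigs with UMIs of other families only were all named with D or N (TRAV4D-4, TRAV13D-2, TRAV7D-5, TRAV7N-6 and TRAV9N-4). In that labelled KO, TRAV11, TRAV13-1 and TRAV9-1, named without a letter, were among such contigs too. The rate is therefore not shown to hold for each copy. The UMIs beside TRAV13-1 were of TRAV4-4-DV10, and those beside TRAV9-1 of TRAV6-7-DV9. These V segments were found with them in the recurrent alpha pairs above, the latter under the contig name TRAV6N-7. Whether a second alpha chain in the droplet or a wrong V name gave these UMIs was not tested. In macrophages, defined by Lyz2 and Csf1r UMIs without a Cd3 UMI, any Trav UMI was present in 0.622% of 1286 cells (median 8067 UMIs) of the library labelled WT and in 0 of 909 (median 6555 UMIs) of that labelled KO, against 71.3% and 72.3% of TRA barcodes (median 3810 and 5209 UMIs). The Traj genes had 0 UMIs in either matrix, so J names could not be checked in this way.

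TRAJ22, TRAJ12, TRAJ23, TRAJ27 and TRAJ43 held the most unique rearrangements of the J segments. TRAJ22 (chr14:54197248-54197307) was used in 15 of 122 barcodes (12.3%) from 14 rearrangements in the library labelled WT and in 10 of 155 (6.45%) from 10 rearrangements in that labelled KO. TRAJ12 (chr14:54206552-54206610) had 9 and 19 barcodes from 5 and 8 rearrangements. TRAJ43 (chr14:54174742-54174798) had 5 and 17 barcodes from 5 and 6 rearrangements. For TRAJ12 and TRAJ43 the 2 rearrangements of 12 barcodes shown above gave 12 of the 19 and 12 of the 17 barcodes in the library labelled KO. TRAJ23 had 6 and 8 barcodes from 4 and 8 rearrangements, and TRAJ27 had 9 and 5 from 8 and 4.

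TRAJ49 (chr14:54168686-54168744), chosen after its values were seen, had the widest ratio of the J segments that could be compared. It was used in 1 barcode of the library labelled WT and in 23 (14.8%) of that labelled KO, a ratio of 18.1 (log2 4.18, 95% interval 1.56 to 9.54). The rearrangement with TRAV4-4-DV10 gave 11 of the 23, and leaving out the 5 rearrangements in at least 5 barcodes left a log2 ratio of 3.67. The 23 barcodes held 9 rearrangements against 1 (log2 3.23, 0.38 to 8.69), a total of unique rearrangements under the 20 set for a comparison. A Cd8 UMI without a Cd4 UMI was found in 17 of the 23 barcodes, which came from 5 of the rearrangements.

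Of 41 J segments 4 reached 20 barcodes over both libraries, and all 4 (100%) were at least 1.5-fold apart, 3 higher (75%) and 1 lower (25%) in the library labelled KO. By the same rule 60% of 10 TRBJ segments were that far apart, 30% higher and 30% lower. These come from the same libraries and include the beta partners of the large rearrangements, so they are no independent background either. The 4 TRAJ segments were TRAJ49, TRAJ43 (log2 1.42, -0.08 to 3.21) and TRAJ12 (0.73, -0.48 to 2.06) on the higher side and TRAJ22 (-0.93, -2.25 to 0.32) on the lower. Without the rearrangements in at least 5 barcodes TRAJ43 had a log2 ratio of 0.085 and TRAJ12 of -0.28. Over unique rearrangements TRAJ22 alone reached 20, and it was less than 1.5-fold apart (0 of 1, 0%, beside 40% of 10 TRBJ segments; log2 -0.42, -1.75 to 0.85). At this depth the remaining 37 J segments could not be compared one by one.

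**Figure D3:**
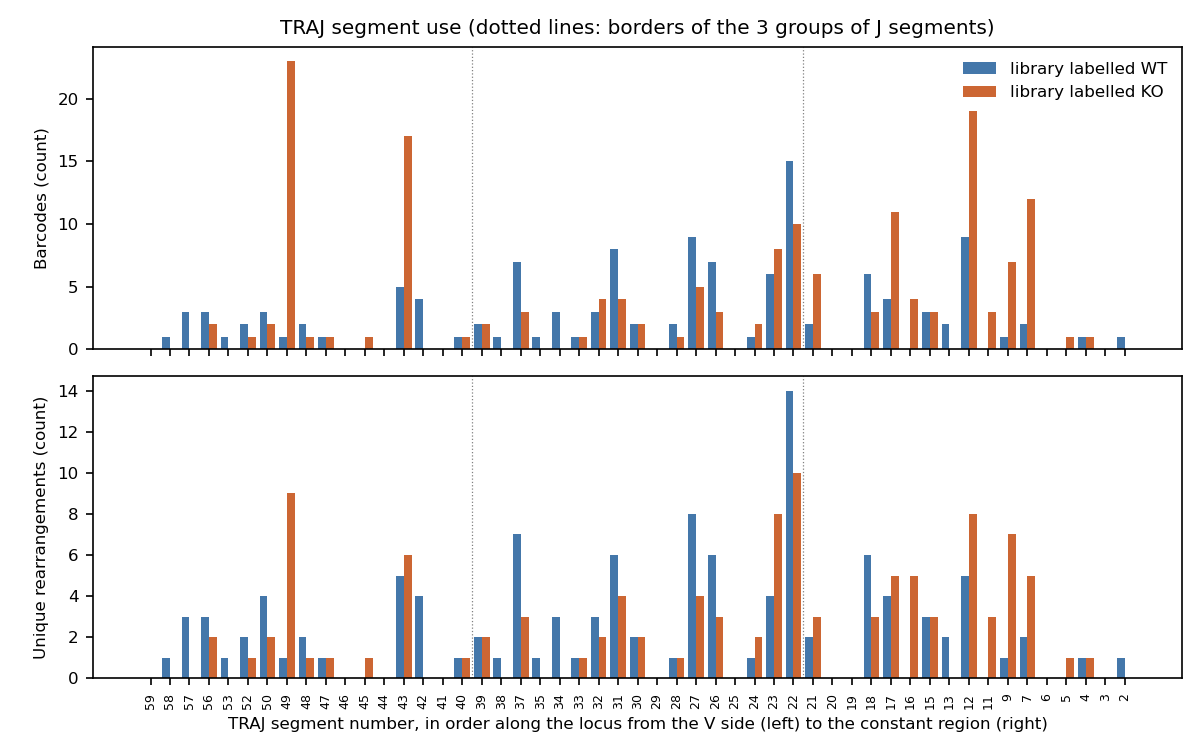
Number of barcodes (upper panel) and of unique rearrangements (lower panel) that use each TRAJ segment, ordered along the locus from the V side at the left to the constant region at the right, for the libraries labelled WT and KO. TRAJ49, TRAJ43 and TRAJ12 reach 23, 17 and 19 barcodes in the library labelled KO and 9, 6 and 8 rearrangements.

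The J segments were also grouped by place, as 17 near the V cluster (TRAJ59 to TRAJ40), 17 in the middle (TRAJ39 to TRAJ22) and 17 far from it (TRAJ21 to TRAJ2). In the library labelled WT the middle group held most, with 52.2% (42.7 to 61.6) of unique rearrangements, against 24.3% for the near and 23.5% (16.1 to 32.3) for the far group. The far group took 40% (30.8 to 49.8) in that labelled KO, beside 38.2% (29.1 to 47.9) for the middle and 21.8% for the near group. Each nucleotide sequence counts once in these shares, whatever its number of barcodes. The 114 V segments were grouped likewise into 38 far from the J cluster, 38 in the middle and 38 near it. The far V group held 27.0% (19.1 to 36.0) and 41.8% (32.5 to 51.6) of unique rearrangements, and the near V group 39.1% and 37.3%. The V groups rest on the copy names of the contigs. Only 2 of the 31 far V rearrangements of the library labelled WT had a UMI of the same segment in the RNA matrix, and 9 of the 46 of that labelled KO. Barcodes without any Trav UMI are among the rest, so these counts leave most of the names unchecked and do not show them to be wrong.

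As named in the contigs, V segments near the J cluster were joined more often to near J segments than far V segments were, in both libraries, and far V segments more often to far J segments in the library labelled KO. In the library labelled KO, far J segments were used by 28 of 46 rearrangements (60.9%, 45.4 to 74.9) with a V of the far group, by 11 of 23 (47.8%) with a middle V and by 5 of 41 (12.2%, 4.08 to 26.2) with a near V. The difference between far and near V was 48.7 percentage points (95% interval 27.8 to 64.9). The same shares were 9 of 31 (29.0%, 14.2 to 48.0), 10 of 39 (25.6%) and 8 of 45 (17.8%, 8.0 to 32.1) in the library labelled WT, a difference of 11.3 points (-9.32 to 32.6), not detectable at this depth. With the J segments split at the median of use in place of the 3 groups, the differences were 46.8 points (24.8 to 64.2) in the library labelled KO and 23.7 (-0.67 to 45.8) in that labelled WT. With the 3 groups counted by contig they were 46.4 and 6.13. Restricted to V segments of which the RNA matrix held a UMI, which left 9 and 2 rearrangements with a far V, they were 25.2 points (-4.08 to 62.5) and -14.6 (-29.2 to 70.0), so neither difference was detectable in that subset. At the other end of the J cluster the pattern was present in that library too: near J segments were used by 1 of 31 rearrangements (3.23%, 0.08 to 16.7) with a far V and by 18 of 45 (40%, 25.7 to 55.7) with a near V. The corresponding shares were 5 of 46 (10.9%) and 16 of 41 (39.0%) in that labelled KO.

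Spearman's rho between the order of V towards the J cluster and the order of J away from the V cluster was -0.35 over 115 unique rearrangements in the library labelled WT and -0.49 over 110 in that labelled KO. Counted by contig, where a barcode with a pair of alpha chains enters once for each, it was -0.27 over 127 and -0.59 over 165. With the V segments restricted to those of which the RNA matrix held a UMI, it was -0.35 over 72 and -0.55 over 58. The rearrangements of a library share the same pool of mice, and rho is given as a description. Whether the libraries differ in it was not tested.

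**Figure D4:**
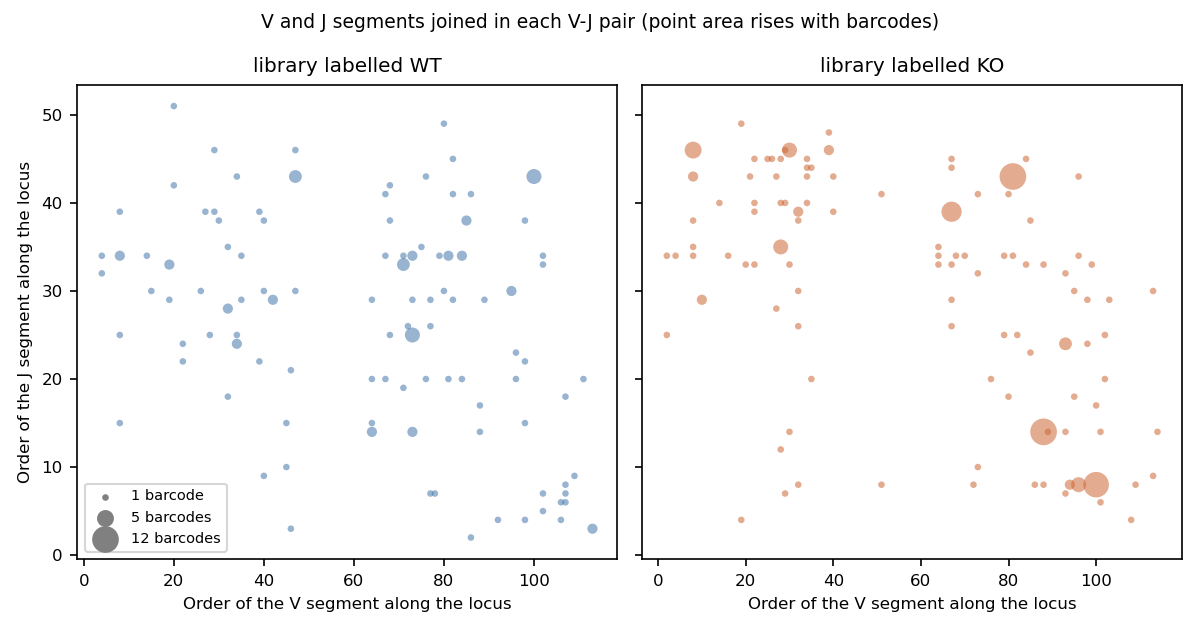
Order of the J segment along the locus (vertical axis, larger is further from the V cluster) against order of the V segment (horizontal axis, larger is nearer the J cluster), 1 point per V-J pair, with an area that rises with its barcodes, in the libraries labelled WT (left) and KO (right). Spearman's rho over unique rearrangements is -0.35 and -0.49, and the largest points of the right panel are rearrangements in 12 and 11 barcodes.

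Single V-J pairs were thinly filled. The members used 156 combinations of a V family and a J segment, 113 of them by 1 rearrangement and 16 by 3 or more, and 21 were used in both libraries. TRAV7 with TRAJ22 was the most frequent, with 3 rearrangements in each library, followed by TRAV6 with TRAJ37 and TRAV9 with TRAJ22, each with 3 in the library labelled WT and 2 in that labelled KO. TRAV13 with TRAJ49 (1 and 3), TRAV14 with TRAJ43 (2 and 2) and TRAV7 with TRAJ27 (2 and 2) came next with 4 each. None of these 6 pairs was that of a rearrangement in at least 5 barcodes, and TRAV7 with TRAJ27 alone had more barcodes than rearrangements (3 against 2, in the library labelled KO). By V gene and J segment 104 pairs were used in the library labelled WT and 107 in that labelled KO, with 10 in both.

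Over unique rearrangements, the CDR3 of the alpha chain had a median length of 14 amino acids in each library. Its mean was 13.7 ± 1.30 amino acids (SD, n = 115 unique rearrangements) in the library labelled WT and 13.4 ± 1.5 (SD, n = 110) in that labelled KO, and its range over both was 9 to 18. A length of 14 was the most frequent, at 40% (31.0 to 49.6) and 32.7% (24.1 to 42.3). The beta chain had means of 13.7 and 13.9. Counted by contig, the means of the alpha chain were 13.7 and 13.4, and the medians 14 and 13. In the library labelled KO the most frequent length by contig was 13, with 61 contigs against 36 of length 14.

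**Figure D5:**
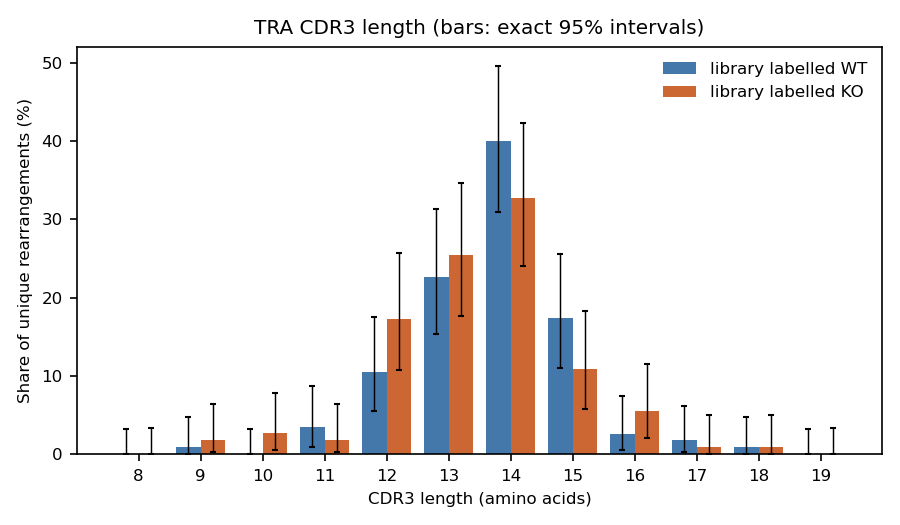
Share of unique rearrangements (vertical axis, percent, with exact 95% intervals for counting error) by length of the TRA CDR3 in amino acids (horizontal axis), for the libraries labelled WT and KO. Both peak at 14, with 40% and 32.7%, and their intervals overlap at every length.

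By segment, over both libraries, the 34 rearrangements of TRAV6 had a mean of 14.1 ± 1.13 amino acids (SD), the 31 of TRAV7 13.4 ± 1.33, the 29 of TRAV14 13.4 ± 1.05, the 19 of TRAV9 13.7 ± 0.820 and the 22 of TRAV13 13 ± 1.65. TRAV16, chosen after its values were seen, had the longest mean of the families with at least 10 rearrangements, 15.4 ± 1.43 (n = 10). Among J segments TRAJ22 had 13.9 ± 0.90 (n = 24), TRAJ27 13.7 ± 1.07 (n = 12), TRAJ12 13.3 ± 1.03 (n = 13), TRAJ23 13.2 ± 1.53 (n = 12) and TRAJ43 12.4 ± 1.29 (n = 11). TRAJ31, also chosen afterwards, had 12.1 ± 1.20 (n = 10). The 5 rearrangements in at least 5 barcodes ranged from 12 amino acids for TRAV4-4-DV10 with TRAJ49 to 17 for TRAV6N-7 with TRAJ17.

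TRAV11 (chr14:53519303-53519859) joined to TRAJ18 (chr14:54200777-54200842), the alpha chain of invariant NKT cells, was rare. It was found in 2 of 122 barcodes (1.64%, 0.199 to 5.80) of the library labelled WT and in 1 of 155 (0.645%, 0.0163 to 3.54) of that labelled KO. The intervals overlap over most of their length, and no difference was detectable at this depth. Each contig coded for a CDR3 of 15 amino acids. The first of the sequences shown above occurred in 1 barcode of each library, and it was the only alpha CDR3 nucleotide sequence of 224 found in both. The TRB tables also shared 1 sequence.

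The 3 barcodes carried few other marks of invariant NKT cells. Their beta segments were TRBV29 with TRBJ1-4 in 1 barcode of each library and TRBV13-1 with TRBJ2-2 in the other barcode of the library labelled WT. Both are from V families known as partners of this alpha chain. These counts do not show which barcode of the library labelled WT held the shared alpha sequence, or which TRB sequence was shared. The same alpha and beta pair in both libraries is therefore not shown. The 3 barcodes had 5, 8 and 7 Cd3 UMIs among 2148, 3847 and 2252 RNA UMIs, and 0 UMIs of Cd8a, Cd8b1, Cd4 and Foxp3. Klrb1c, which encodes NK1.1, had 2 UMIs in the TRBV13-1 barcode and 0 in the others. Zbtb16, the factor PLZF of these cells, had 0 UMIs in the 3 barcodes, and also 0 in all TRA barcodes that passed as RNA cells (120 and 152), so that its absence separates nothing here. Il2rb, the third gene of the marker list, had 1 UMI in the TRBV13-1 barcode. In the TRBV29 barcodes it had 0 in the library labelled WT and 1 in that labelled KO. It was present in 77 of the 120 and 112 of the 152 barcodes, so its presence separates little either.

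TRAJ18 was also joined to other V segments. It was used in 6 barcodes (4.92%, 1.83 to 10.4) of the library labelled WT and in 3 (1.94%, 0.401 to 5.55) of that labelled KO, from 6 and 3 rearrangements. With TRAV16D-DV11, TRAV14D-2, TRAV3-3 and TRAV7N-6 it formed CDR3s of 14 or 15 amino acids in the former, and with TRAV3D-3 and TRAV7D-2 of 13 and 14 in the latter, and 3 of these 6 barcodes had Cd8 UMIs. TRAV11 was joined to another J segment once, TRAJ33 in the library labelled KO, in a barcode with 1 Foxp3 UMI. TRAV1, the V segment of MAIT cells, was found in 0 of 122 and 0 of 155 barcodes, which allows shares of up to 2.46% and 1.94%. TRAJ33 occurred in 1 barcode of each library.

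Some CDR3 regions were coded by different bases for the same amino acids. This was the case for 4 pairs of rearrangements, 2 within the library labelled WT, 1 within that labelled KO and 1 between them, and the members of a pair always used the same V and J names. The pair between the libraries joined TRAV13-2 to TRAJ26, and the capital marks the base that differs.
TRAV13-2 with TRAJ26, 2 barcodes in the library labelled WT: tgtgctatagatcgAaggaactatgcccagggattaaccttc
TRAV13-2 with TRAJ26, 1 barcode in the library labelled KO: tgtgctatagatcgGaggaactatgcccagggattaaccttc

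The TRA barcodes were also split by co-receptor transcripts. A Cd8a or Cd8b1 UMI without Cd4 was found in 41 (33.6%, 25.3 to 42.7) barcodes of the library labelled WT and in 81 (52.3%, 44.1 to 60.3) of that labelled KO, and Cd4 without Cd8 in 26 (21.3%) and 26 (16.8%). Thinned to 1000 UMIs a cell, which left out 1 and 2 barcodes, the CD8 shares were 22.3% and 41.8% and the CD4 shares 9.09% and 6.54%. Macrophages without a Cd3 UMI held a Cd8 UMI in 0.311% and 0.990% of cells. The 41 CD8 barcodes of the library labelled WT held 41 rearrangements, whereas the 81 of that labelled KO held 38. The 26 CD4 barcodes held 24 and 26 rearrangements. A Foxp3 UMI was found in 18.9% and 16.1% of TRA barcodes. The largest rearrangement within the CD8 barcodes had 2 barcodes in the library labelled WT and 12 in that labelled KO, and within the CD4 barcodes 3 and 1.

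Transcripts of the receptor complex and its signalling, a list of 20 genes, were compared over the 120 and 152 TRA barcodes that passed as RNA cells (623104 and 1088120 UMIs). Of the 16 genes with at least 20 UMIs, 2 were at least 1.5-fold higher in the library labelled KO and 0 lower, beside 16.2% higher and 10.1% lower among 6845 genes. The list's median log2 ratio was 0.04, and that of all genes 0.06. Trbc1, a beta constant region, stood at 156 CPM (interval 126 to 190) in the library labelled WT and 262 CPM (232 to 294) in that labelled KO, which is 0.75 on the log2 scale (0.41 to 1.10). Themis, a regulator of receptor signalling, had 20.9 and 37.7 CPM (log2 0.85, -0.08 to 1.88). Neither passed that size once the 5 rearrangements in at least 5 barcodes were left out. In barcodes with both TRA and TRB, 1 gene was higher (Trbc1) and 1 lower, and without the barcodes with macrophage or B cell markers 3 were higher (Trac with the other two) and 0 lower.

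The remaining 14 genes compared were less than 1.5-fold apart. Trac stood at 273 CPM (interval 233 to 317) and 394 CPM (358 to 433), which is 0.53 on the log2 scale (0.27 to 0.80), and Trbc2 differed by 0.42 (0.21 to 0.65). The CD3 chains that carry the signal had log2 ratios of 0.22 (Cd3g), 0.06 (Cd3d) and -0.17 (Cd3e), and Cd247, the zeta chain, 0.04. The kinases Lck and Zap70 had 0.05 and -0.24, and the adaptors Lat and Lcp2 had -0.38 and 0.16. Cd5, Cd6 and Ptprc, surface molecules that tune the signal, had -0.27, -0.09 and -0.08. Rag1, Rag2, Dntt and Ptcra, which serve receptor assembly in the thymus, had 0 UMIs in these TRA barcodes of either library.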

How the data were processed

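TCR and RNA libraries were made with 10x Genomics 5′ V1.0 chemistry from sorted leukocytes, per the labels' protocols. Each deposited TCR table gives per contig its UMI and read counts, segment names, CDR3 sequences and marks for cell, confidence and productivity, and the deposited RNA matrices hold unfiltered UMI counts per gene. The submitters' processing notes name Cell Ranger 3.1.0, Seurat 3.2.0, R 3.6.1 and mm10. How contigs were assembled is not given in the sources used here.

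From these, TRA contigs marked productive and of high confidence were counted with Python 3.11.15 and pandas 2.3.3 by barcode and by unique CDR3 nucleotide sequence. Shares have exact Clopper-Pearson intervals, log2 ratios of shares exact conditional binomial intervals and CPM exact Poisson intervals (scipy 1.17.1), at the 95% level. A difference between 2 shares has an interval that combines their exact ones. The rule of size was at least 1.5-fold with at least 20 counts over both libraries, and a count of 0 was given a limit of 3 counts. RNA cells had at least 1000 UMIs, 500 genes and at most 10% mitochondrial UMIs, 35152477 and 24385843 UMIs in all before this filter in the libraries labelled WT and KO. No doublet caller was run. Macrophages had at least 5 Lyz2 and 1 Csf1r UMIs and no Cd3 UMI. With 1 pooled library per genotype there is no replicate and no test.

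Segments were placed with the RefSeq table for GRCm38. The text names the 5 TRAV families, 5 TRAJ segments and 5 family and J pairs (with ties) with most unique rearrangements, segments 1.5-fold apart in both counts, TRAV11, TRAJ18, TRAV1, TRAJ33, rearrangements in at least 5 barcodes or in both libraries, and genes of the list of 20 receptor genes, 1 of which is not reported here by name. The members and lists were chosen with earlier results of these data known. The statistics were tested on simulated data. Alternatives changed the unit of counting, filters on contigs and barcodes, and thresholds. Leaving out barcodes with marker UMIs or rearrangements in at least 5 barcodes (for pairing and receptor genes), restricting V names to those in the RNA and thinning were chosen after seeing the data.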

Additional observations from a re-analysis of the deposited data

Results flagged for a closer look

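Productive TRA contigs without the mark of high confidence were in none of the comparisons above, and they exceed the 3 counts that a count of 0 allows: 128 in the library labelled WT and 122 in that labelled KO. None was marked as a cell, their median was 1 UMI, and 100 and 83 of them lay in barcodes that passed as RNA cells. A CDR3 nucleotide sequence of a high-confidence contig of the same library recurred in 9 and 28 of them. TRAV11 with TRAJ18 was among them in 3 and 2 barcodes, more than the 2 and 1 counted above. Of the 3, 1 held the sequence that both libraries share, and another had 58 RNA UMIs and 0 Cd3 UMIs.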

How the results depend on the processing

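Of 159 alternatives, 136 moved a value by less than its counting interval, or a count by less than 1.5 times. A further 19 moved it by more, and 4 changed the sign of a ratio at least 1.5-fold apart or of a pairing difference. Some of the 136 could not move a value. All 127 and 165 contigs were full length, so that filter left none out, and TRAV11D was not used. The library labelled WT held no rearrangement in 5 or more barcodes, so its rho was fixed when these were left out. Segment ratios changed sign in 7 of 99 alternatives: besides those of TRAV9 and TRAJ12 below, TRAV14 went from -0.041 to 0.16 by unique rearrangement, 0.051 in barcodes that passed as RNA cells and 0.39 without rearrangements in 5 or more barcodes, and TRAV4 from 0.42 to -0.65 without these. The number of TRAV families at least 1.5-fold apart, 4 by barcode, was 1 by unique rearrangement, 1 with at least 40 counts, 1 at 2-fold, 2 with at least 2 UMIs and 2 without rearrangements in 5 or more barcodes. The 4 TRAJ segments became 0 by unique rearrangement, 2 at 2-fold, 2 with 1 contig per barcode, 1 with at least 2 UMIs and 0 without rearrangements in 5 or more barcodes, and with at least 40 counts none could be compared. Fewer segments reached 20 counts in most of these settings. No single TRAV gene reached 20 counts. TRAV9 reversed from a log2 ratio of 0.65 to -0.088 by unique rearrangement and -0.24 without rearrangements in 5 or more barcodes, and TRAJ12 from 0.73 to -0.28 without them. With V named the same in the RNA matrix, the pairing difference went from 11.3 to -14.6 points in the library labelled WT and from 48.7 to 25.2 in that labelled KO, on 2 and 9 rearrangements with a far V. The invariant NKT share in the library labelled KO was 0% with at least 2 UMIs, since its only contig has 1. RNA agreement there was 89.3% by family in place of 77.7%. The 2 receptor genes became 1 in barcodes with TRA and TRB and 0 without rearrangements in 5 or more barcodes. For the receptor genes and the thinned co-receptor shares the cause was not tested. No paired analysis was possible because each genotype has 1 library of each kind. Depth limits every segment: a median of 2 UMIs a contig and TRA in about 15% of T cells leave most segments under 20 counts.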
